A study of Mus musculus with 288 samples.

Results

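Bone marrow-derived macrophages (BMDMs) that had received only DMSO, the solvent control, before stimulation were compared between 2 classes of Toll-like receptor (TLR) ligand. The first class was LPS and Poly(I:C), whose receptors signal through the adaptor TRIF, and the second was Pam3cys, CpG, R848 and FLA, whose receptors use the adaptor MyD88 alone; Pam3cys is a ligand of TLR2, CpG DNA of TLR9 and R848 of TLR7, and FLA is named as in the labels. All wells of the DMSO plate collected at 60, 90, 120, 150 and 180 min with 1 of these 6 ligands were taken. This gave 10 wells of the TRIF-using ligands and 20 wells of the MyD88-only ligands, 30 of the 288 wells of the series. Unstimulated DMSO wells (NoStim) of the same times, 5 in number, served as the baseline. All of these cells came from C57BL/6 mice of 12 weeks and had been grown from marrow with M-CSF over 7 days; most other wells of the series had been exposed to an inhibitor of the kinase CDK8 for 24 h before the stimulus, either 100 nM dCA or 1 µM BRD-6989. Gene expression was measured by 3′ digital gene expression, in which each polyadenylated RNA molecule is tagged with a random barcode, so that distinct barcodes (UMI) are counted. Transcription factor activity was read by TF-seq, in which each reporter construct carries a sequence tag of its own.

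TLRs are the receptors by which macrophages sense microbial products, and most of them pass the signal through MyD88 to NF-kB and the MAP kinases, which switch on cytokine and chemokine genes. TLR3, the receptor for double-stranded RNA such as Poly(I:C), signals through TRIF instead, and TLR4, the receptor for LPS, uses both adaptors. TRIF leads to the kinase TBK1 and the transcription factor IRF3, which switches on the interferon-beta gene and a first set of antiviral genes; secreted interferon then acts through its own receptor on the wider set of interferon-stimulated genes. MyD88 receptors of the endosome can also reach interferon genes through IRF7, a route best known in plasmacytoid dendritic cells.

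Each well was 1 library, with 1 well for each ligand and time, so the wells of a ligand at different times were the units of every test and time entered as a block. Each ligand filled 1 column of the plate, and ligand and plate column cannot be told apart. Nothing in the labels ties the wells to cultures or animals of their own, so p-values measure only the spread between wells, which may be technical. The classes hold 2 and 4 ligands, and the class tests count the wells of 1 ligand as separate units. With ligands as units, a permutation test, which was not run, could reach no p below 0.0667. UMI totals were 51552 to 88104 per well for the TRIF-using ligands and 44598 to 112575 for the MyD88-only ligands, with 4042 to 6064 genes detected. Rn45s, the precursor of ribosomal RNA, made up 47.1% ± 4.80 of the UMI in TRIF-using wells, 54.6% ± 7.78 in MyD88-only wells and 56.5% ± 3.19 in NoStim wells (SD, n = 10, 20 and 5), with the highest mean for CpG, 62.1%. Of 16 macrophage identity genes 16 were detected, with summed levels of 4912 to 10327 CPM (UMI per 1000000 UMI of a well, after TMM scaling) in TRIF-using wells and 5054 to 7687 in MyD88-only wells. Neutrophil markers summed to 0 to 48.5 CPM against 0 to 141, with 6 of 9 detected and Mpo, Elane and Retnlg at 0. Dendritic cell markers summed to 211 to 502 CPM against 102 to 617, with 8 of 12 detected and Flt3, Zbtb46, Ccr7 and Clec9a at 0. The members of that list with the most UMI were Tcf4, Bst2 and Xcr1. Of lymphocyte and NK markers 1 of 11 was detected, and of mast cell, erythroid and stromal markers 1 of 11. In such bulk wells, fewer responding cells and less RNA per cell cannot be told apart.

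Antiviral genes were higher with the TRIF-using ligands and made up much of the class difference. Of 5453 genes that averaged 1 UMI or more in a well, 39 differed between TRIF-using and MyD88-only wells (0.715% of those tested, edgeR's quasi-likelihood test at a Benjamini-Hochberg adjusted p under 0.05). In TRIF-using wells 28 of them were higher (0.513%) and 11 lower (0.202%). Of the 28 higher genes, 14 stood in the lists of interferon-stimulated genes, IRF3 targets and interferon-induced GTPases. In the same wells, which chose these genes, 22 of the 28 passed the test for LPS against the mean of the MyD88-only ligands (0.77% of all tested genes were higher there) and 20 for Poly(I:C) (0.532%), with 15 in common. Total read counts in place of UMI left 15 calls, with 13 of the 28 higher and 2 of the 11 lower genes among them. With the Rn45s share of each well as a covariate 21 genes were called, with 15 of the 28 higher and 2 of the 11 lower genes among them, and sums of each ligand's wells as 6 libraries gave 18, with 14 and 3 among them. Of the 39 calls, 18 were lost under 10 to 17 of the 21 to 24 other settings run: those of Gm12250, Irf7, Oas1a, Oas1g, Sp140, Tgtp2, Arid5a, Ccnd2, Cdkn1a, Depdc1a, Psap, Tiparp, Atp6v0d2, Gas6, Lars2, Malat1, Safb and Tbc1d2b. In simulated counts of the same depth, the test recovered 37 of 100 genes set to a 4-fold and 9 of 100 set to a 2-fold difference, so a gene that missed the threshold is not shown to be alike.

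Ifit1 (chr19:34640889-34650009 in GRCm38.p6), which encodes an RNA-binding protein that blocks translation of viral RNA, marked the TRIF-using class. Over 60, 90, 120, 150 and 180 min, LPS wells held 183, 908, 1551, 1719.7 and 1963 CPM and Poly(I:C) wells 37.3, 317, 1028, 1453 and 2069. MyD88-only wells held 0 to 277 with a median of 59, and NoStim wells 13.6 to 50.3 with a median of 26.7. From 90 min every LPS and Poly(I:C) well stood above every MyD88-only well, while both wells of 60 min lay inside their range. The class difference on the log2 scale was 3.47 ± 0.27, adjusted p = 2.73e-21 (± SE). Differences are log2 of TRIF-using over MyD88-only wells throughout.

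Cxcl10 (chr5:92346638-92348889), the chemokine that draws CXCR3-bearing T cells, held 642, 2608, 2505, 2696 and 3018 CPM in LPS wells and 457, 863, 1348, 2374 and 2485 in Poly(I:C) wells. MyD88-only wells held 89.1 to 1032 with a median of 347. Both wells of 60 min and the Poly(I:C) well of 90 min lay inside that range, and from 120 min all 6 TRIF-using wells were above the highest MyD88-only well. NoStim wells held 491 to 705 with a median of 609.9, so unstimulated cells were not at a low level of Cxcl10 and the median of the MyD88-only wells lay below theirs. The class difference was 1.96 ± 0.19, adjusted p = 2.63e-15. Ccl5 (chr11:83525778-83530518), a chemokine for T cells and monocytes, held 91.7, 370.1, 533, 1224 and 1489 CPM in LPS wells and 74.6, 120.1, 399.7, 521 and 1016 in Poly(I:C) wells. MyD88-only wells held 0 to 457 with a median of 72.2, and NoStim wells 0 to 25.7 with a median of 0. Ccl5 was thus low without a stimulus and the groups overlapped over part of the range, with a class difference of 2.31 ± 0.29, adjusted p = 5.89e-10.

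Rsad2 (chr12:26442743-26456452) encodes the antiviral enzyme viperin. LPS wells held 657, 2170.3, 5025, 7669 and 10342 CPM, and Poly(I:C) wells 298, 1245, 3300.2, 7033 and 11309.9. The MyD88-only wells ran from 55.9 to 2126 with a median of 258. Their top value came from R848, whose wells held 223, 359, 321, 1059.6 and 2126 over the 5 times, and it lay above the TRIF-using wells of 60 min and the Poly(I:C) well of 90 min. The class difference of Rsad2 was 3.36 ± 0.21, adjusted p = 2.18e-28. Cmpk2, a nucleoside monophosphate kinase whose gene neighbours Rsad2, held 45.8, 236, 420.1, 1038 and 1110.0 CPM in LPS wells and 0, 131, 434, 1198 and 1677 in Poly(I:C) wells. In MyD88-only wells it ran from 0 to 123 with a median of 25.2, below every TRIF-using well from 90 min, with a class difference of 3.64 ± 0.35, adjusted p = 2.63e-15.

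**Figure D1:**
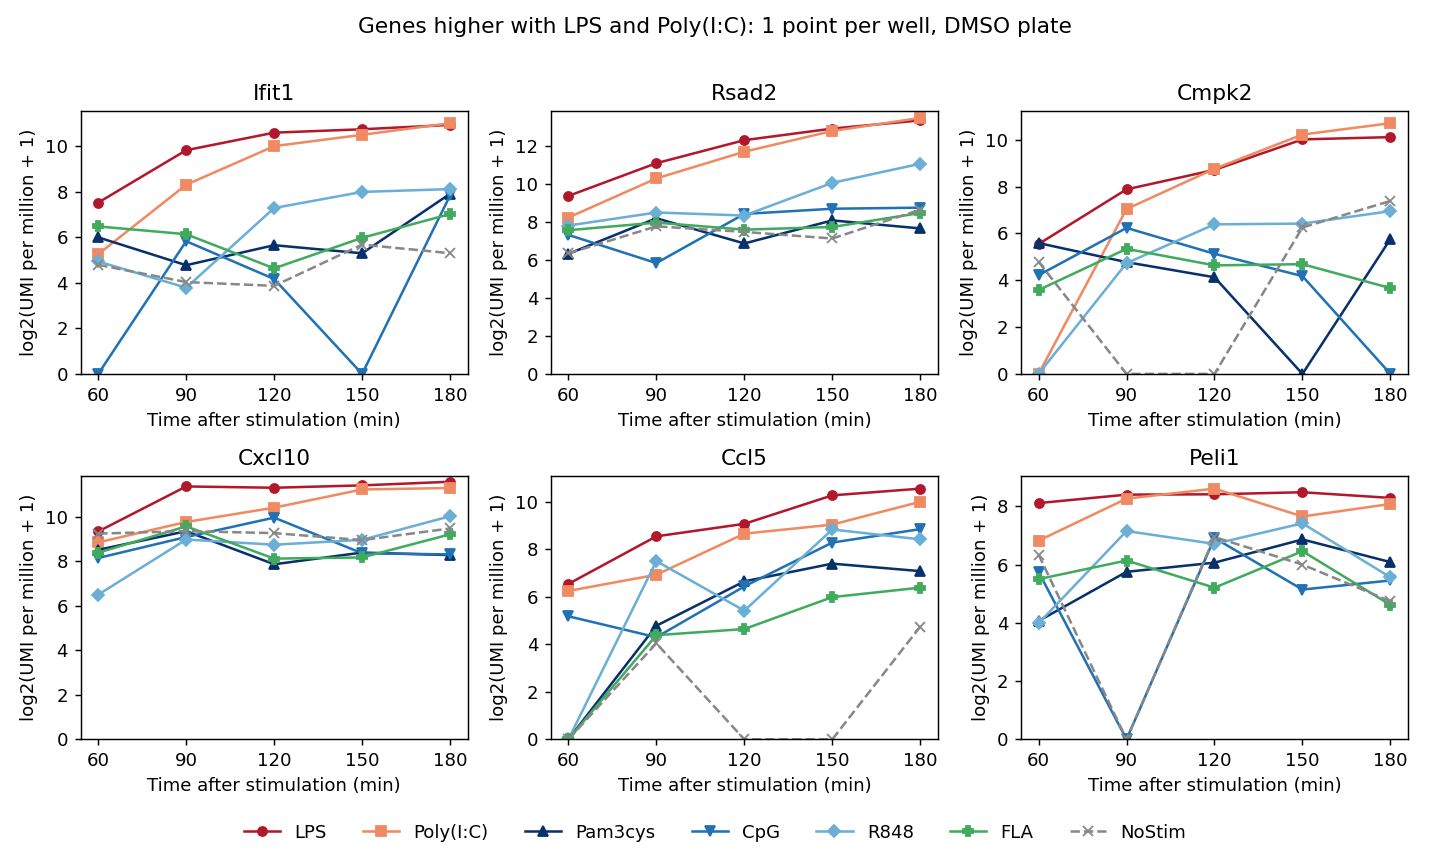
Levels of Ifit1, Rsad2, Cmpk2, Cxcl10, Ccl5 and Peli1 in each DMSO well against time after the stimulus (x axis, min; y axis, log2 of CPM plus 1), with 1 line per stimulus and 1 well per point. The LPS and Poly(I:C) lines climb away from the 4 MyD88-only lines, and the R848 line of Rsad2 reaches 2126 CPM at 180 min.

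Among further interferon-stimulated genes, Mx1, a GTPase gene, differed by 2.86 ± 0.39, adjusted p = 2.50e-08. It held 0, 286, 307, 666 and 244 CPM in LPS wells and 37.3, 109, 297, 566 and 599.8 in Poly(I:C) wells. MyD88-only wells ran from 0 to 176 with a median of 21.4, so both wells of 60 min and the Poly(I:C) well of 90 min overlapped with them. Oasl1, which in mice restrains translation of Irf7, differed by 2.44 ± 0.41, adjusted p = 2.13e-05, and Ifit3, a partner of Ifit1, by 2.40 ± 0.41, adjusted p = 2.50e-05. Without Poly(I:C) Ifit3 stood at 2.01 and was not called (adjusted p = 0.148). Ifit2 differed by 1.55 ± 0.27, adjusted p = 4.23e-05, and its call was lost without 180 min (1.16, adjusted p = 0.0509). Irf7, the transcription factor that amplifies interferon production, differed by 1.49 ± 0.37, adjusted p = 0.0224, and its call was lost without LPS and without Poly(I:C) (adjusted p = 0.0857 and 0.398). Oas1a and Oas1g, near-identical sensors of double-stranded RNA whose reads may be split between the copies, differed by 1.34 ± 0.34 and 1.43 ± 0.35, both called. Of the interferon-induced GTPases that attack vacuoles of intracellular microbes, Iigp1 differed by 3.38 ± 0.60, adjusted p = 6.36e-05, with 114 UMI over the 10 TRIF-using wells and 17 over the 20 MyD88-only wells. Tgtp2, which has a close copy and whose reads may be shared with it, differed by 2.07 ± 0.56, adjusted p = 0.0453. Its call was lost without LPS (adjusted p = 0.127), without Poly(I:C) (0.424) and with the Rn45s share as a covariate (0.308).

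The whole interferon lists give the context of these genes. Of 56 tested interferon response genes 10 rose and 0 fell, with a median class difference of 0.81 over the 56, where all tested genes had a median of -0.01. Of 12 tested IRF3 targets and type I interferon genes 7 rose (Ifit1, Ifit2, Ifit3, Rsad2, Oasl1, Ccl5 and Cxcl10), with a median of 2.21. Of 13 interferon-induced GTPases 2 rose, Iigp1 and Tgtp2, with a median of 1.18. Isg15, the ubiquitin-like protein conjugated in antiviral defence, had a class difference of 1.01 ± 0.38, adjusted p = 0.429, and was called for LPS (1.69) but not for Poly(I:C) (0.018). Irf1, an interferon-induced transcription factor, had 1.17 ± 0.39, adjusted p = 0.223. None of 12 genes of the interferon receptor and JAK-STAT list passed (edgeR, adjusted p under 0.05), where 0.715% of all tested genes did. With a share so small, a list of 12 cannot be set apart from other genes by having no call. The interferon-beta gene itself gave few molecules: Ifnb1 had 7 UMI over all TRIF-using wells and 2 over all MyD88-only wells, and it was not tested.

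Promoters are shown only for antiviral genes that hold the letters searched for, so that these letters can be set beside the class difference. The 250 bases before the RefSeq start of 4 of them (GRCm38.p6) are printed 5′ to 3′ on the strand of the gene, with the letters GAAANNGAAA, the core of the interferon-stimulated response element to which IRF and STAT complexes bind, in capitals where they occur on either strand. Ifit1 is chr19:34640639-34640888 and Ifit3 is chr19:34583279-34583528, both on the plus strand, and each holds 2 matches. Rsad2 is chr12:26456453-26456702 and Cxcl10 is chr5:92348890-92349139, both on the minus strand, and each holds 1.
Ifit1: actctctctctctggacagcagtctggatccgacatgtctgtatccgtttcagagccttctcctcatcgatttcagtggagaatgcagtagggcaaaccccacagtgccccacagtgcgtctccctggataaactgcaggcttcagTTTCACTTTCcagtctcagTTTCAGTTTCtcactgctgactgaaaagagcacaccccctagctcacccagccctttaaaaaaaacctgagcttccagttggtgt
Ifit3: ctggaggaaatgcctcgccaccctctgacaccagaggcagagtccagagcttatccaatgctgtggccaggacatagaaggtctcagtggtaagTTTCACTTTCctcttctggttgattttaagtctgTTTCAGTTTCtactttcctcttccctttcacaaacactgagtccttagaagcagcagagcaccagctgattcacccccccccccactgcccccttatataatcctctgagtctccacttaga
Rsad2: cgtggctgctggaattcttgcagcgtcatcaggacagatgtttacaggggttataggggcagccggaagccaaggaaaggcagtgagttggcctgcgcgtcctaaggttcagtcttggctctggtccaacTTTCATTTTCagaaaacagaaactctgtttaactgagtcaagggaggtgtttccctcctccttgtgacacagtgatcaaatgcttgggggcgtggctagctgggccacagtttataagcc
Cxcl10: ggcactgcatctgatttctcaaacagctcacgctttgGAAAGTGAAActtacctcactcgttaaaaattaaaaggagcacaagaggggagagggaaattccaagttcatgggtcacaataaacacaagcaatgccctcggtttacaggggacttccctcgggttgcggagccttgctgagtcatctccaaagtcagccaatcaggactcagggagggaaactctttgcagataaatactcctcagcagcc
The matches began 104 and 85 bases before the start of Ifit1, 156 and 122 before Ifit3, 120 before Rsad2 and 213 before Cxcl10.

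Windows of 300 bases (250 before to 50 after the start) were at hand for 23 of the 28 higher genes. The letters GAAANNGAAA occurred on either strand in 9 of these 23, or 39.1%, against 4.58% of the 4145 tested genes with a window. Of all 27025 genes with a window, 3.99% held them. The 9 were Cxcl10, Fam26f, Gm12250, Ifit1, Ifit3, Oas1a, Oas1g, Rsad2 and Tgtp2. The interferon response genes Cmpk2, Ifit2, Irf7 and Oasl1, also called higher, had windows without these letters. The 2 matches in Oas1a and in Oas1g overlapped each other. For NF-kB only the core GGGNNTTTCC was searched, and other forms of its site were not. This core occurred in 1 of the 23 (4.35%), against 2.32% of the tested genes with a window. That gene was Tnfaip3, whose upstream sequence (chr10:19015411-19015660, minus strand) carries the match, in capitals, 12 bases before the start.
Tnfaip3: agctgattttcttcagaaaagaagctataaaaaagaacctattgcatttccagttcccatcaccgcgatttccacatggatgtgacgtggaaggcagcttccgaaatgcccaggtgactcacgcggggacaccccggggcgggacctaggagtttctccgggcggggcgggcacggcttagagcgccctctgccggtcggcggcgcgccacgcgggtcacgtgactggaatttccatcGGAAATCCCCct
Neither core occurred in the windows of 9 of the 11 lower genes that had one. These matches describe letters and show no binding, and a window without a match may still hold another form of either site.

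The other 14 higher genes stood outside the interferon lists. Among them Peli1, a ubiquitin ligase that takes part in TRIF and TLR signalling, held 275, 336, 339, 356 and 311 CPM in LPS wells and 112, 306, 388, 199.7 and 269 in Poly(I:C) wells. MyD88-only wells ran from 0 to 169.5 with a median of 52.7, and only the Poly(I:C) well of 60 min fell inside that range. Its class difference was 2.16 ± 0.33, adjusted p = 7.94e-07, and it was called for LPS (2.40) and for Poly(I:C) (1.97). Irg1 (Acod1 in RefSeq), the enzyme that makes itaconate, differed by 1.57 ± 0.31, adjusted p = 4.97e-04, and both ligands were called. Arid5a, an RNA-binding protein that stabilises cytokine mRNAs, differed by 3.10 ± 0.73, adjusted p = 0.0118, on 55 UMI in TRIF-using and 15 in MyD88-only wells. Fam26f (Calhm6 in RefSeq), a membrane channel protein of immune cells, differed by 3.12 ± 0.74, adjusted p = 0.0125, on 70 and 11 UMI. Leaving out LPS ended the calls of Arid5a and Fam26f (adjusted p = 0.175 and 0.193), and so did leaving out Poly(I:C) (0.0596 and 0.0914).

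Called genes with few molecules were Ptger2, the prostaglandin E2 receptor EP2, and Depdc1a. Ptger2 had 28 UMI in TRIF-using wells and 2 in MyD88-only wells, a ratio of 26.3 per library total with an exact 95% interval of 6.62 to 227 for counting error alone. Depdc1a had 46 and 10 UMI, found in 6 of 10 and 2 of 20 wells. Gm12250, an interferon-inducible GTPase gene that was not in the lists, differed by 1.91 ± 0.49, adjusted p = 0.0304, and Sp140, a nuclear body protein, by 1.94 ± 0.50, adjusted p = 0.0295.

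A further group of higher genes rested on 1 of the 2 ligands. Ccl4, a chemokine of the NF-kB programme, held 2979.9, 4273, 3894, 3145 and 2274 CPM in LPS wells and 1082, 1190.3, 948, 865 and 1309.7 in Poly(I:C) wells, so no well of one ligand overlapped with the other. Its class difference of 1.13 ± 0.20, adjusted p = 4.23e-05 was 1.85 for LPS and 0.17 for Poly(I:C), and without LPS it was 0.10 (adjusted p = 0.996). Tnfaip3, the A20 enzyme that ends NF-kB signalling, had a class difference of 1.41 ± 0.34, adjusted p = 0.0148, with 2.22 for LPS, 0.052 for Poly(I:C), and -0.054 once LPS was left out. Its LPS wells held 290.3, 269, 1519, 263 and 379 CPM, with 1 high value at 120 min, and its Poly(I:C) wells 149, 153, 103, 122 and 0; without 120 min the class difference was 1.01 (adjusted p = 0.473), and without FLA 1.20 (adjusted p = 0.0894). Tiparp, an ADP-ribosyltransferase, Cdkn1a, the p21 cell cycle inhibitor, and Ccnd2, cyclin D2, followed LPS too: they were called for LPS (2.65, 1.20 and 1.51) and not for Poly(I:C) (0.74, 0.31 and 0.55). Psap, the precursor of lysosomal saposins, followed Poly(I:C), with 1.08 against 0.14 for LPS. Of the 28 higher genes 2, Ccl4 and Tnfaip3, also passed the direct test of LPS against Poly(I:C); for the others that difference did not pass.

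**Figure D2:**
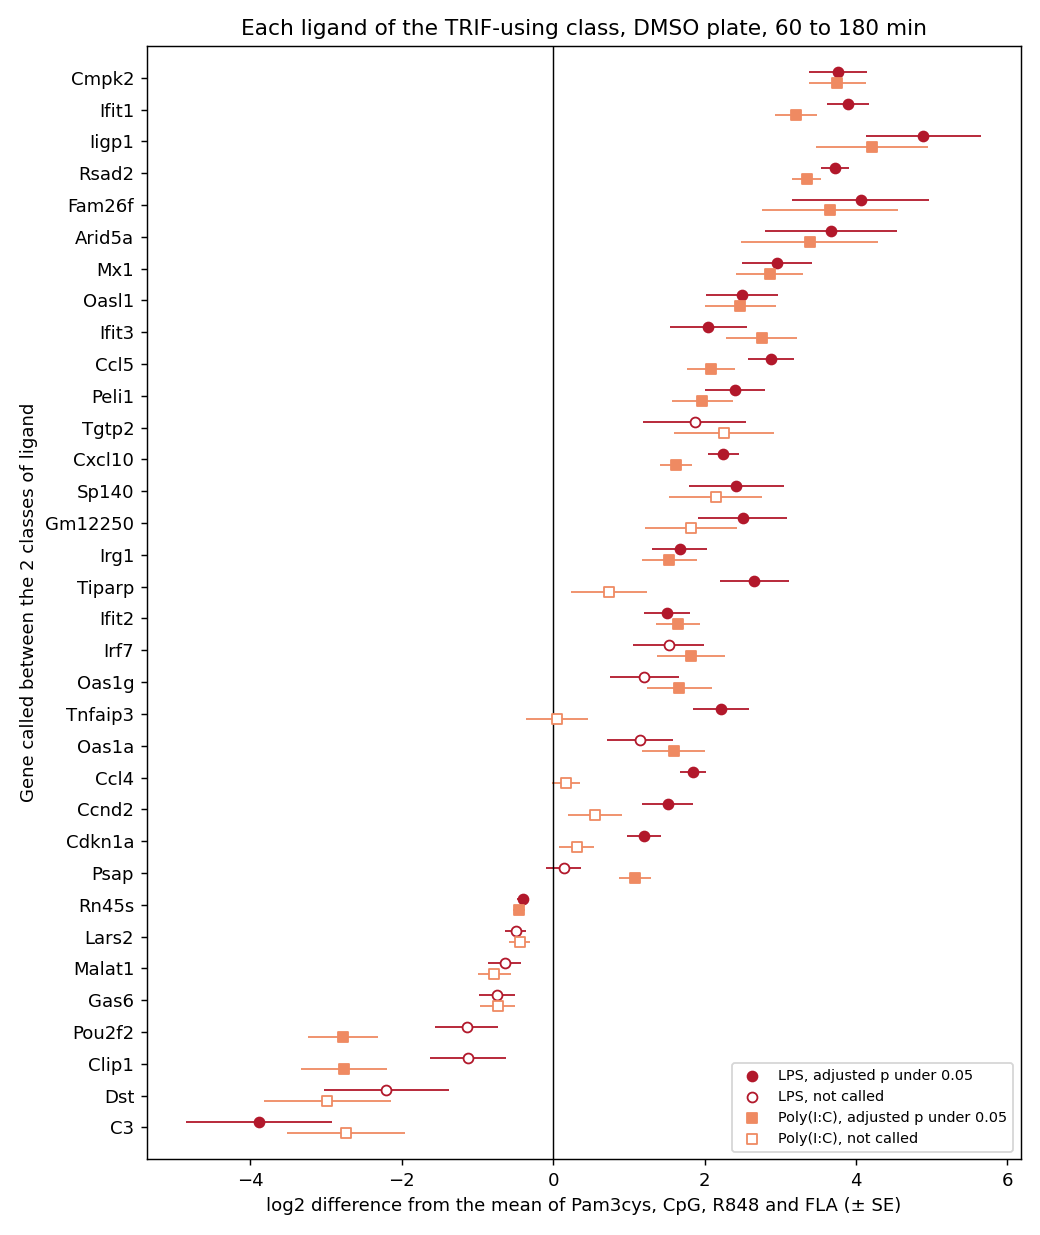
Log2 difference of LPS and of Poly(I:C) from the mean of the 4 MyD88-only ligands (x axis, log2, bars ± SE) for the 34 called genes with at least 60 UMI over the 30 wells (y axis, gene); filled points passed the test for that ligand. Ifit1, Rsad2 and Cmpk2 lie above 3 for both ligands, while Ccl4 and Tnfaip3 lie near 2 for LPS and near 0 for Poly(I:C).

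Among the 11 lower genes, C3, the central complement component, held 0, 0, 0, 0 and 27.1 CPM in LPS wells and 0, 0, 45.7, 22.2 and 12.2 in Poly(I:C) wells. MyD88-only wells ran from 0 to 258 with a median of 84.3, with C3 detected in 17 of the 20, and NoStim wells from 0 to 101 with a median of 13.6. The class difference was -3.16 ± 0.62, adjusted p = 4.33e-04, on 9 UMI against 159, and it was not called with total reads (adjusted p = 0.502). Adding the DMSO wells of the stimulus labelled MDP_LPS ended the call of C3 too. That setting kept the calls of 24 of the 27 higher genes tested in it, and of 2 of the 11 lower genes. Pou2f2, the lymphoid and myeloid transcription factor Oct-2, held 45.8, 202, 129, 155 and 40.6 CPM in LPS wells and 9.30, 32.8, 57.1, 33.3 and 61.2 in Poly(I:C) wells, against 29.7 to 601 with a median of 233 in MyD88-only wells and 0 to 81.3 with a median of 25.7 in NoStim wells. Its class difference was -1.82 ± 0.34, adjusted p = 1.40e-04, called for Poly(I:C) (-2.78) and not for LPS (-1.14), and it lost its call without Poly(I:C) (adjusted p = 0.309). The NoStim wells thus lay in the low part of the range, with the Poly(I:C) wells.

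Clip1, a protein of microtubule ends, differed by -1.89 ± 0.41, adjusted p = 0.00324, and Dst, a cytoskeletal linker, by -2.63 ± 0.61, adjusted p = 0.00997; both lost their calls without Poly(I:C) (adjusted p = 0.429 and 0.302). Tbc1d2b, Atp6v0d2 (a subunit of the vacuolar proton pump) and Safb (a nuclear scaffold protein) had 0 UMI in the 10 TRIF-using wells, against 40, 36 and 48 UMI over the 20 MyD88-only wells. With a floor of 3 counts over the group, these were at least 7.11-fold, 6.40-fold and 8.53-fold lower on the DMSO plate. Their plate differences are given below. Each was found in only 9 to 11 of the 20 MyD88-only wells. Gas6, a ligand of the TAM receptors that clear dead cells, differed by -0.74 ± 0.19, adjusted p = 0.0239, the nuclear RNA Malat1 by -0.73 ± 0.19, adjusted p = 0.0295, Lars2 by -0.49 ± 0.13, adjusted p = 0.0449 and Rn45s by -0.45 ± 0.090, adjusted p = 6.15e-04. Lars2 encodes the mitochondrial leucyl-tRNA synthetase. The Rn45s share given above moved with the class, and with that share as a covariate Gas6 stood at -0.67, Malat1 at -0.19 and Lars2 at 0.058, none of them called. Clip1, at -1.02 (adjusted p = 0.78), and Dst, at -2.17 (0.29), were not called with it either.

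LPS and Poly(I:C) themselves differed in 17 of 5453 genes (0.312%), of which 15 were higher with LPS (0.275%) and 2 lower (0.0367%). The 15 were mainly NF-kB targets. Nfkbia, the NF-kB inhibitor that NF-kB itself induces, held 3545, 2271, 2019.8, 2479 and 1421 CPM in LPS wells and 1175, 1212, 594, 643 and 477 in Poly(I:C) wells, a difference of 1.56 ± 0.23, adjusted p = 2.38e-07. Every LPS well of Nfkbia was above every Poly(I:C) well. Nfkbiz, a nuclear cofactor of NF-kB, held 978, 404, 646, 248 and 474 with LPS and 131, 65.5, 103, 99.8 and 171 with Poly(I:C), again without overlap (2.23 ± 0.36, adjusted p = 3.02e-06). Il1b, the precursor of interleukin-1 beta, held 138, 858, 501, 465 and 352 in LPS wells and 74.6, 109, 0, 44.4 and 0 in Poly(I:C) wells (3.29 ± 0.54, adjusted p = 4.92e-06). Tnfaip2, a TNF-induced gene of cell protrusions, held 1543, 3028, 2294, 2216 and 2152 in LPS wells and 233, 1212, 788, 865 and 477 in Poly(I:C) wells (1.75 ± 0.24, adjusted p = 5.64e-08). For Il1b and Tnfaip2 too the wells of the ligands did not overlap.

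The other genes higher with LPS were the chemokines Ccl2 (1.99 ± 0.37, adjusted p = 1.75e-04), Ccl3 (1.90 ± 0.36, adjusted p = 1.75e-04), Ccl4 and Cxcl2 (1.62 ± 0.35, adjusted p = 0.0024), the cytokine feedback inhibitor Socs3 (3.11 ± 0.62, adjusted p = 6.71e-04), the kinase gene Pim1 (1.95 ± 0.38, adjusted p = 4.06e-04), the heparan sulfate proteoglycan Sdc4 (1.29 ± 0.22, adjusted p = 1.77e-05), the metal-binding Mt2 (2.20 ± 0.45, adjusted p = 0.00113), Tnfaip3, Mtdh and Hmgn5. Hmgn5, a nucleosome-binding protein, had 41 UMI with LPS and 1 with Poly(I:C). Lower with LPS were Ftl1, the ferritin light chain (-0.81 ± 0.19, adjusted p = 0.00793), and Ctsd, the lysosomal protease cathepsin D (-0.91 ± 0.23, adjusted p = 0.0308). The median over all tested genes was -0.18 for LPS against Poly(I:C), so both signs are read against that value. Of 18 tested NF-kB cytokine and chemokine genes 5 were higher with LPS, with a list median of 1.72, and of 31 NF-kB feedback and survival genes 4 were.

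Against the MyD88-only ligands the TRIF-using ligands stood on both sides for these NF-kB targets, so that the class difference of many was near 0. LPS differed from the MyD88-only mean in 48 genes (0.88%) and Poly(I:C) in 38 (0.697%). Nfkbia was called higher with LPS (0.76) and called lower with Poly(I:C) (-0.80), with a class difference of 0.12 ± 0.18, adjusted p = 0.981. Il1b (1.34 with LPS and -1.94 with Poly(I:C)) and Tnfaip2 (0.80 and -0.94) were called in both directions in the same way. Nfkbiz was called lower with Poly(I:C) (-2.06) and was 0.17 with LPS, not called. In the list of 18 NF-kB cytokines and chemokines, 8 were higher with LPS; with Poly(I:C) 0 were higher and 1, Il1b, was lower. Tnf, Cxcl1, Cxcl2 and Ccl3 had class differences of 0.11, -0.28, -0.062 and 0.24, none called, and the sign of each turned under at least 1 alternative setting. Il12b, the p40 subunit of interleukin-12, had 1.06 ± 0.55, adjusted p = 0.711 for the class and was called for LPS (2.28). Il6, Il1a and Il27 had 4, 0 and 7 UMI in TRIF-using wells and 1, 15 and 13 in MyD88-only wells, too few to test.

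**Figure D3:**
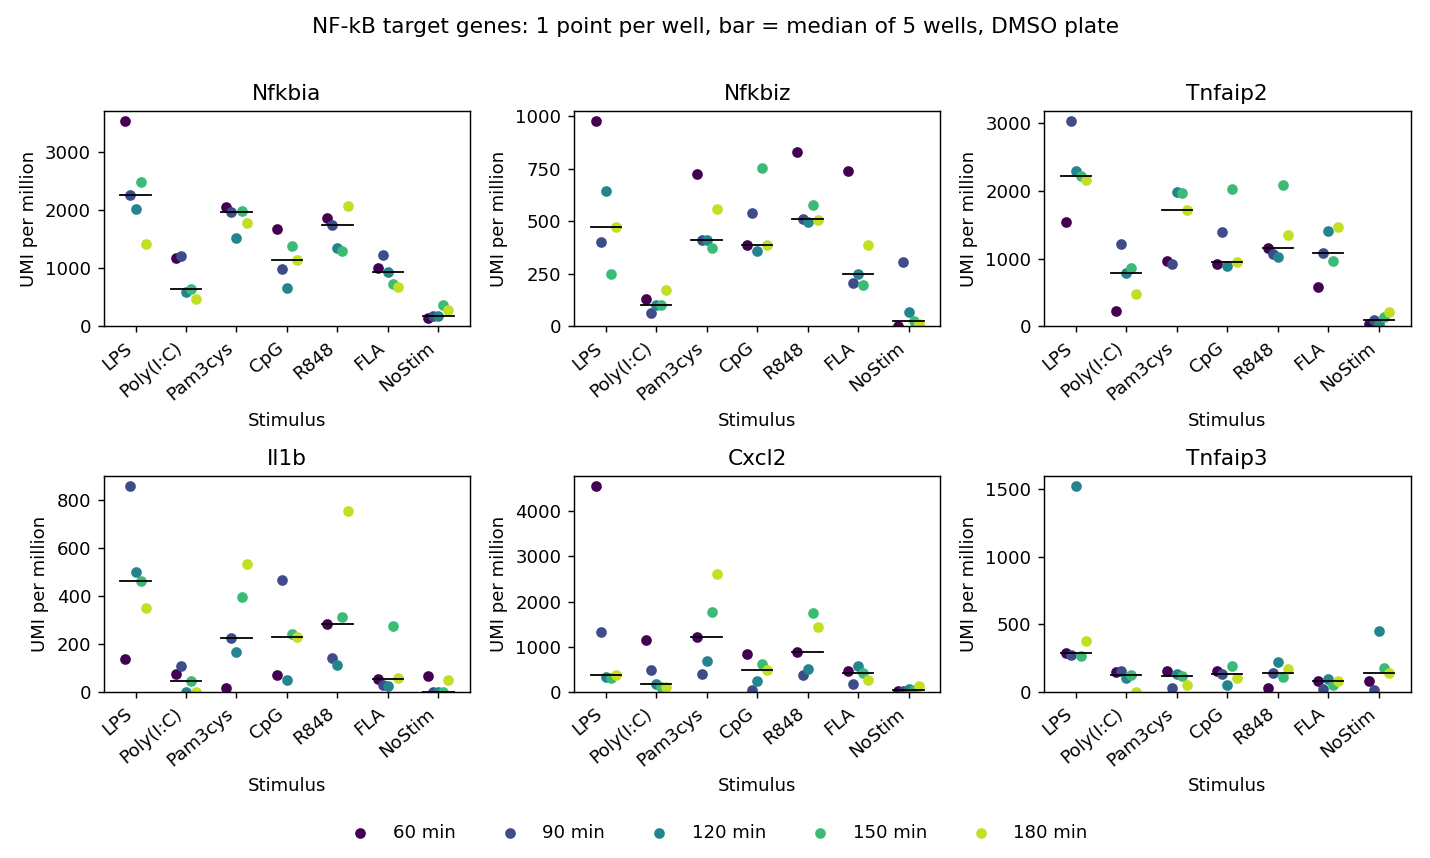
Levels of Nfkbia, Nfkbiz, Tnfaip2, Il1b, Cxcl2 and Tnfaip3 in each well (y axis, CPM) for LPS, Poly(I:C), the 4 MyD88-only ligands and NoStim (x axis), coloured by time, with a bar at the median of 5 wells. LPS wells of Nfkbia hold 1421 to 3545 CPM and Poly(I:C) wells 477 to 1212.

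Poly(I:C) was also higher than the MyD88-only mean in some macrophage identity genes. Ctsd (0.89 ± 0.17, adjusted p = 1.29e-04), the complement component C1qb (0.87 ± 0.18, adjusted p = 0.001) and lysozyme Lyz2 (0.90 ± 0.22, adjusted p = 0.0124) passed, 3 of 15 tested macrophage identity genes. Of all tested genes 0.532% were called higher with Poly(I:C) and 0.77% with LPS. For LPS 0 of the 15 passed, and with a share so small that count cannot set the list apart from other genes. Ftl1 (0.58 ± 0.14, adjusted p = 0.0124) and Ldha, lactate dehydrogenase A (0.74 ± 0.19, adjusted p = 0.0218), passed as well. Of these 5, the direct test of LPS against Poly(I:C) passed for Ctsd and Ftl1 only. The median of all tested genes was 0.13 for Poly(I:C) against the MyD88-only ligands.

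The 4 MyD88-only ligands were not alike. A test of any difference among them called 9 genes (0.165%): Rsad2, Ccl5, Ccl3, Ccl4, Ccl7, Cxcl2, Nfkbia, Rn45s and Lars2. Rsad2 averaged 198, 289, 760.0 and 238 CPM with Pam3cys, CpG, R848 and FLA, against 5357 with LPS, 4349.9 with Poly(I:C) and 202 without a stimulus. Ccl5 averaged 87.8, 195, 191 and 36.3, against 769 with LPS and 402 with Poly(I:C). For both genes R848, the ligand of TLR7, was the highest of the MyD88-only ligands or close to it, and its mean stayed below those of LPS and Poly(I:C). Among the 28 genes higher with TRIF-using ligands, 3 also differed among the MyD88-only ligands.

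Set against NoStim wells, LPS changed 71 of 5469 genes (1.3%), Poly(I:C) 34 (0.622%), Pam3cys 31 (0.567%), CpG 19 (0.347%), R848 36 (0.658%) and FLA 15 (0.274%). These contrasts share the 5 NoStim wells. Of the 28 higher genes, 11 passed for LPS, 9 for Poly(I:C), 3 for Pam3cys, 2 for CpG, 4 for R848 and 2 for FLA. These genes were chosen as higher in the same LPS and Poly(I:C) wells, so more calls for those ligands are in part built in. Ifit1 stood at 5.33 with LPS and 4.69 with Poly(I:C), against 1.35 with Pam3cys, 0.80 with CpG, 2.11 with R848 and 1.53 with FLA (log2, each over NoStim). It was called for LPS and Poly(I:C) and for none of the MyD88-only ligands. Cxcl10 stood at 1.75 with LPS and 1.15 with Poly(I:C), against -0.72, -0.37, -0.46 and -0.52 with Pam3cys, CpG, R848 and FLA, all 4 below the unstimulated level, though with adjusted p of 0.506, 0.85, 0.824 and 0.863.

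The class difference changed with time in 3 genes (0.055% of 5453), tested as a linear term in hours from 60 to 180 min. Cmpk2 gained 2.37 ± 0.54 on the log2 scale per hour (adjusted p = 0.0354) and Ifit2 gained 1.76 ± 0.36 per hour (adjusted p = 0.00697). Cxcl2, a chemokine for neutrophils, went the other way and fell by 2.45 ± 0.33 per hour (adjusted p = 5.35e-08). Cxcl2 wells held 4554, 1329, 339, 309.9 and 379 CPM with LPS and 1157, 480.5, 183, 99.8 and 97.9 with Poly(I:C), both highest at 60 min. With Pam3cys they held 1212, 396, 692, 1766 and 2618 and with R848 876, 384, 497, 1738 and 1448, both highest at 150 or 180 min. The CpG wells held 842, 37.3, 238, 617 and 485 and the FLA wells 464, 178, 575, 409.8 and 258. The class averages of Cxcl2 therefore crossed within the period, and a single class difference over all times (-0.062) does not describe it. At 15, 30 and 45 min, in 18 wells, 1 gene of 6161 (0.0162%) differed, Rn45s (-0.33), with 283 genes at an unadjusted p under 0.05; Ifit1 stood at -0.14 and Cxcl10 at -0.33 there, not called.

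The same contrast was run on the plates that had received dCA or BRD-6989, whose wells the DMSO comparison did not use. Each ligand filled the same column there as on the DMSO plate, so ligand and column cannot be told apart on these plates either. There 11 of 5417 genes (0.203%) were called on the dCA plate and 12 of 6247 (0.192%) on the BRD-6989 plate. Of the 28 genes higher in DMSO, 26 were tested on each, and 26 of 26 were higher with the TRIF-using ligands on both, where 49.3% and 50.9% of all tested genes were. Of these, 8 passed on each plate; Ifit1, Rsad2, Cmpk2 and Cxcl10 passed on both. Ifit1 differed by 3.36 ± 0.34, adjusted p = 7.87e-14 with dCA and 3.53 ± 0.35, adjusted p = 1.83e-13 with BRD-6989, against 3.47 with DMSO. Rsad2 differed by 3.24 ± 0.23, adjusted p = 1.44e-22 and 3.02 ± 0.28, adjusted p = 3.72e-15, against 3.36 with DMSO. Cxcl10 differed by 1.29 ± 0.26, adjusted p = 0.00258 and 2.10 ± 0.30, adjusted p = 5.28e-07, against 1.96. Ccl5 passed with dCA (1.58 ± 0.28, adjusted p = 1.90e-04) and not with BRD-6989 (1.21 ± 0.33, adjusted p = 0.124), against 2.31 with DMSO.

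A direct test of whether the class difference itself differed between an inhibitor plate and the DMSO plate called 0 genes on either plate (edgeR, adjusted p under 0.05). Among the genes named here, 8 of 60 with dCA and 8 of 61 with BRD-6989 had an unadjusted p under 0.05 in it, and the DMSO wells that chose the called genes enter this test. For Ccl5 that difference was -1.09 ± 0.54 for BRD-6989 minus DMSO. Of the 11 genes lower in DMSO, all tested on each plate, 8 were lower with dCA and 7 with BRD-6989, and 0 passed. Over all tested genes the difference was positive in 49.3% with dCA and 50.9% with BRD-6989. Only 0 of 5417 and 1 of 6247 tested genes were called lower there, so having no call cannot set the 11 apart from other genes. Atp6v0d2, with 0 UMI in the TRIF-using wells of DMSO, had the smallest unadjusted p of the named genes on both plates, with a plate difference of 4.17 ± 1.05 (adjusted p = 0.327) for dCA minus DMSO and 4.25 ± 1.05 (adjusted p = 0.294) for BRD-6989 minus DMSO; its fitted size depends on the prior count. For C3 the plate difference was 3.35 ± 0.86 (adjusted p = 0.327) for dCA minus DMSO and 2.26 ± 0.79 (adjusted p = 0.978) for BRD-6989 minus DMSO, and for Clip1 it was 2.17 ± 0.66 (adjusted p = 1) for dCA minus DMSO. For Dst the plate difference was 3.05 ± 0.81 for BRD-6989 minus DMSO (adjusted p = 0.435). Safb had plate differences of 4.47 ± 1.27 for BRD-6989 minus DMSO (adjusted p = 0.627) and 3.53 ± 1.16 for dCA minus DMSO. Those of Tbc1d2b were 4.22 ± 1.28 (adjusted p = 0.775) and 1.69 ± 0.99, in the same order. Depdc1a, higher in DMSO, had -3.30 ± 1.33 and -4.17 ± 1.53, and none of these passed. Trex1, a DNA exonuclease that limits interferon responses to self DNA, and Cited2, a transcriptional coregulator, were called on both inhibitor plates and not in DMSO. Trex1 differed by 1.79 ± 0.38 with dCA and 1.64 ± 0.36 with BRD-6989, against 1.03 ± 0.34, adjusted p = 0.213 with DMSO, and Cited2 by 0.89 and 0.81, against 0.83 ± 0.25, adjusted p = 0.116 with DMSO.

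**Figure D4:**
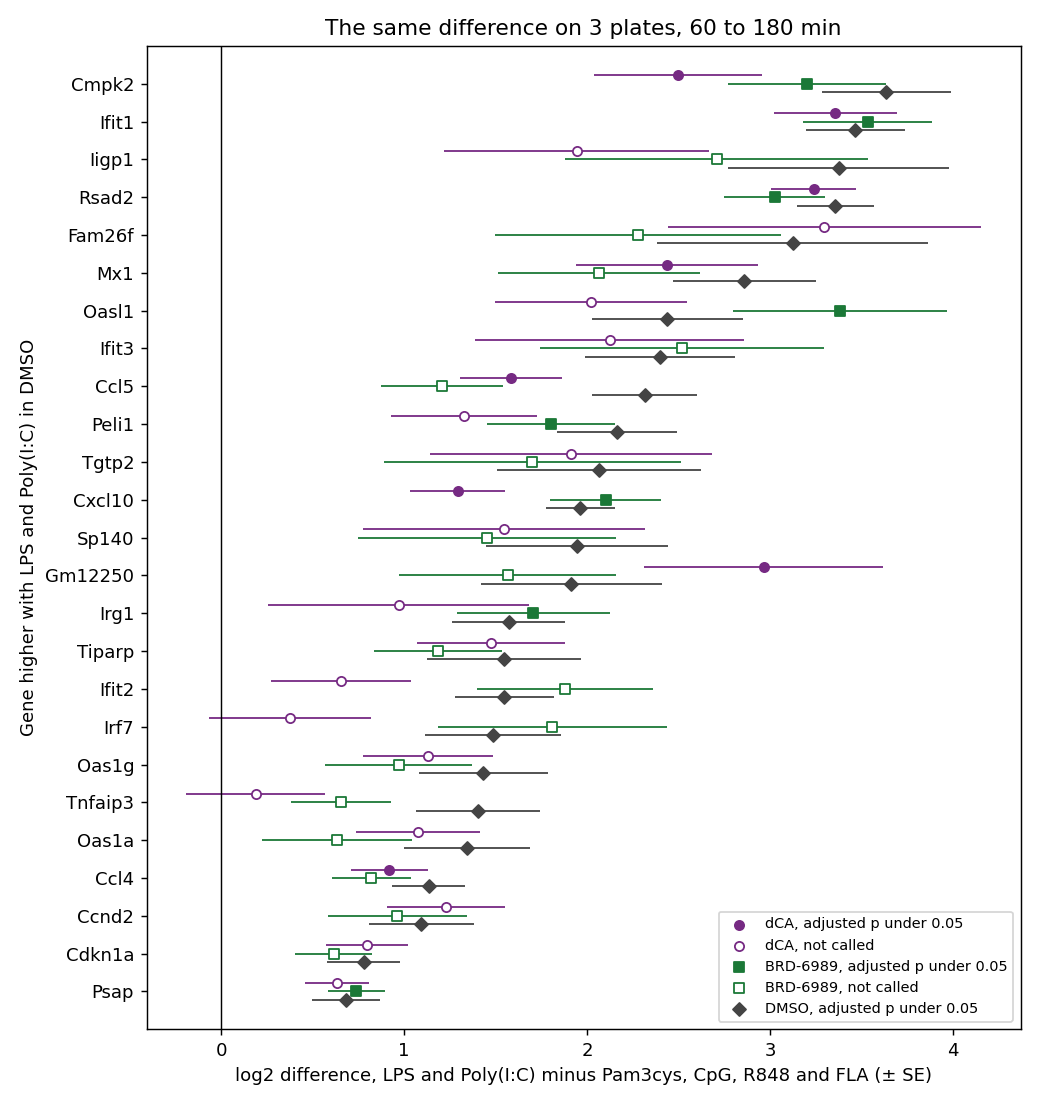
Class difference (x axis, log2 of TRIF-using over MyD88-only wells, bars ± SE) on the dCA, BRD-6989 and DMSO plates for 25 genes tested on all of them (y axis, gene). The points of Ifit1, Rsad2 and Cmpk2 lie well to the right of 0 on each plate, and the intervals of the plates overlap for most genes.

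The TF-seq reporters gave another readout of the same wells. Reporter totals were 2552 to 7203 counts per well with TRIF-using ligands, 2312 to 5880 with MyD88-only ligands and 716 to 823 in NoStim wells, so levels are given per 1000 reporter counts of a well and NoStim levels are the least precise. Against NoStim, 15 of the 58 reporters passed with LPS (25.9%), 14 with Poly(I:C) (24.1%), 14 with Pam3cys (24.1%), 12 with CpG (20.7%), 13 with R848 (22.4%) and 9 with FLA (15.5%). Of 58 reporters 15 differed between the classes (25.9%), 7 higher (12.1%) and 8 lower (13.8%). Taken apart, LPS differed from the MyD88-only mean in 13 (22.4%) and Poly(I:C) in 7 (12.1%). The 7 higher ones were higher under all 3 scalings tried (well total, TMM and the minimal promoter reporter minP_58), while the lower calls depended on the scaling: TMM left 1 of them, TFEB_28, and minP_58 left 0 (edgeR).

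Among the higher ones ISRE_54, named for the interferon-stimulated response element, held 21.8, 32.9, 48.7, 38 and 58.5 per 1000 counts in LPS wells and 17.2, 26.9, 43.5, 51.6 and 80.5 in Poly(I:C) wells, against 17.9 to 33.9 with a median of 25.8 in MyD88-only wells. The TRIF-using wells of 60 and 90 min lay no higher than the top MyD88-only well and those of 120 min and later above it, with a class difference of 0.62 ± 0.11, adjusted p = 8.66e-06. IRF1_55 averaged 17.6 ± 6.88 in TRIF-using wells and 11.7 ± 1.81 in MyD88-only wells (SD, n = 10 and 20; 0.58 ± 0.10, adjusted p = 8.66e-06). IRF3.7_45, named for IRF3 and IRF7, averaged 20.7 ± 4.91 and 14.2 ± 1.52 (0.53 ± 0.094, adjusted p = 8.08e-06), and NoStim wells, at 27.9, were above both. The NFkB_1 reporter took a larger share of the counts in stimulated wells than in NoStim wells, and its part in the order of the IRF3.7_45 shares was not tested. IRF3.7_45 differed between LPS and Poly(I:C), by -0.49 (adjusted p = 0.0119), lower with LPS.

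IFNB1_44, named for the interferon-beta promoter, averaged 43.9 per 1000 counts with LPS and 38.4 with Poly(I:C), and 20.5, 37.1, 39.6 and 20 with Pam3cys, CpG, R848 and FLA. Its MyD88-only ligands thus fell into a high pair, CpG and R848, near the TRIF-using level and a low pair, Pam3cys and FLA. All were above NoStim, at 12. The class difference was 0.49 ± 0.13, adjusted p = 0.00401, and without LPS it was 0.38 (adjusted p = 0.139) and without FLA 0.34 (0.0555). SIE_56 differed by 0.34 ± 0.10, which was called, and lost its call without LPS and without 150 min (adjusted p = 0.18 and 0.102).

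NFkB_1, which took the highest share of the reporter counts, did not pass. It averaged 231 ± 22.4 per 1000 counts in TRIF-using wells and 239 ± 13.7 in MyD88-only wells, against 59.2 in NoStim wells. Its class difference was -0.058 ± 0.043, adjusted p = 0.275, and its sign turned with the scaling (0.05 with TMM, 0.14 with minP_58). LPS and Poly(I:C) did not differ in NFkB_1 beyond the spread of wells either (0.052, adjusted p = 0.818), although Nfkbia and other NF-kB target genes did. The 8 lower reporters were AP1_33 (-0.37 ± 0.10, adjusted p = 0.00438), AHR_3, NRF2_4, Wnt_19, HNF4_24, CEBPb_26, TFEB_28 and SREBP_29, at -0.26 to -0.37. Of these NRF2_4 was low with LPS, at 7.36 per 1000 counts against 13.5 with Poly(I:C), and without LPS its class difference was 0.027. Of other reporters named for STAT or IRF factors, STAT3_5, STAT5_6, STAT6_22 and STAT5_57 did not pass, and IRF3_10 and STAT4_35 passed with TMM only (0.25 and 0.27).

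**Figure D5:**
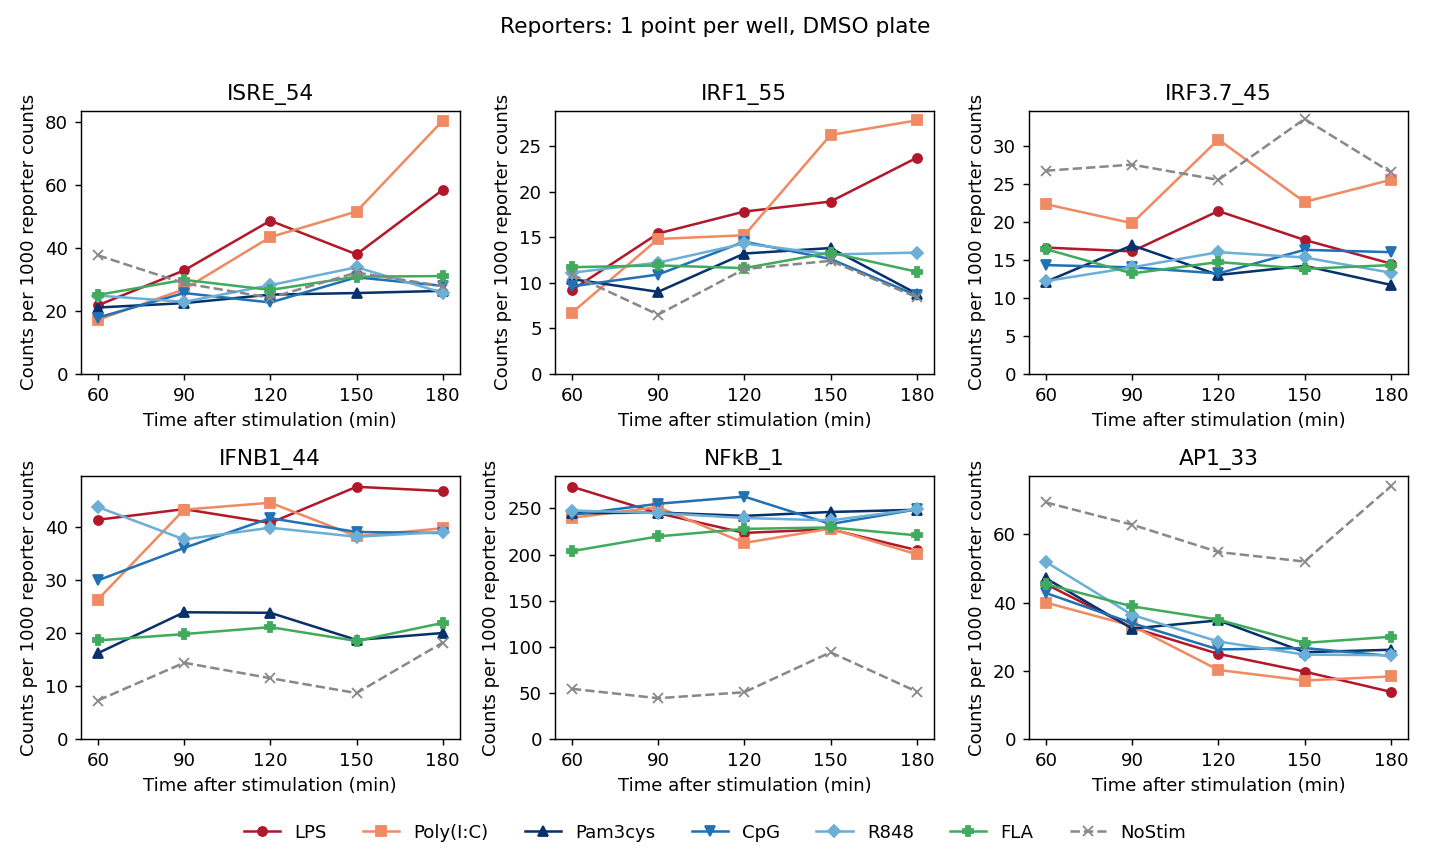
Reporter levels (y axis, counts per 1000 reporter counts of the well) of ISRE_54, IRF1_55, IRF3.7_45, IFNB1_44, NFkB_1 and AP1_33 against time after the stimulus (x axis, min), with 1 line per stimulus and 1 well per point. The LPS and Poly(I:C) lines of ISRE_54 reach 58.5 and 80.5 at 180 min, and the NoStim line of NFkB_1 lies far below the stimulated ones.

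Other lists of the macrophage response were also tested for class differences. Of 24 tested immediate early, AP-1 and MAPK feedback genes, 22 TLR and signalling genes, 14 MHC class I and immunoproteasome genes, 19 glycolysis genes, 13 cholesterol synthesis genes, 11 LXR targets, 11 costimulation genes and 15 macrophage identity genes, 0 passed (edgeR, adjusted p under 0.05). Of all 5453 genes 39 passed (0.715%), and 392 had an unadjusted p under 0.05. With a share so small, lists of this size cannot be set apart from other genes by 0 calls. The cholesterol synthesis genes had a median of -0.36, and the other lists of that group lay nearer to the median of all genes. Of the receptors and adaptors, Tlr2 stood at 0.87 ± 0.30, adjusted p = 0.31, Tlr3 at 1.14 ± 0.83, adjusted p = 0.867 and Myd88 at 0.55 ± 0.79, adjusted p = 0.978. Ticam1, which encodes TRIF, had 6 UMI in TRIF-using wells and 17 in MyD88-only wells and was not tested.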

How the data were processed

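The authors deposited whole-number UMI counts and total read counts for 23481 genes, and counts for 58 TF-seq reporters, per well; the labels' protocols give polyA RNA, TF-seq and 3′ digital gene expression. BWA, edgeR and the mm10 build are named per the submitters' processing notes, and the counting steps are not stated in the sources at hand. UMI counts were the main values, at 44598 to 112575 per well, which limits precision for genes of few molecules.

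Genes averaging 1 UMI or more in a well were tested with edgeR 4.0.16 in R 4.3.3 (TMM, quasi-likelihood, 2-sided), with time as a block, which the ligands share by the labelled times. Reporters were scaled to their well total. P-values were adjusted by Benjamini-Hochberg over all features of a comparison, at 0.05. Alternatives were DESeq2 1.42.0, limma 3.58.1 (voom), total reads, other filters, no block, Rn45s as a covariate, summed ligands, other reporter scalings and leaving out each time or ligand.

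The members and lists were chosen with earlier results of these data known. Genes were named by rule: fixed genes, the 12 largest rises and 10 largest falls averaging 2 UMI or more in a well, up to 4 called list members each way, and the leading genes of the other comparisons; other called genes were added after their values were seen. Of 5453 tested symbols 5430 matched RefSeq, whose GRCm38.p6 coordinates and promoters are given. The fit was tested on simulated data. Some reporters are not reported here. Intervals and floors cover counting error only.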

Additional observations from a re-analysis of the deposited data

Results flagged for a closer look

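In 5 of 80 groups of wells 1 value stood far from the others of its group, where chance flags about 1 in 20 groups. Cxcl10 was low in the LPS well of 60 min, at 9.30 on the log2(CPM + 1) scale, with the later LPS wells at 11.27 to 11.55. The LPS well of 180 min had a UMI total of 82262, with the other LPS wells at 51552 to 56660. Rn45s took 44.3% of the UMI in the FLA well of 150 min and 57.2% to 60.8% in the other FLA wells. The NoStim well of 150 min stood apart for IRF3.7_45, at 33.5 per 1000 reporter counts against 25.5 to 27.5 in the others, and for NFkB_1, at 94.2 against 44.5 to 54.7.

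The class difference changed with time, by the test of the time term itself, in Cmpk2 (2.37 on the log2 scale per hour, adjusted p = 0.0354), Ifit2 (1.76 per hour, adjusted p = 0.00697) and Cxcl2 (-2.45 per hour, adjusted p = 5.35e-08).

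DMSO wells of 60 to 180 min with other stimuli, outside the class comparison, also held marker signal above the NoStim wells. These levels were scaled over all stimuli and so differ slightly from those given above. Ifit1 had a median of 1204 CPM (222 to 1941) with MDP_LPS and 442 (50.1 to 1227) with Zymosan, against 12.9 to 47.1 in NoStim wells. Ccl5 had a median of 888 (46.8 to 1844) with MDP_LPS and 321 (62.7 to 827) with Zymosan, against 0 to 24.3 in NoStim wells. Cxcl10 had a median of 2552 (760.0 to 2747) with MDP_LPS, against 459.6 to 667 in NoStim wells. In each of these cases the lowest well lay above the highest NoStim well. Wells of other stimuli overlapped with NoStim wells but also reached higher levels. Cxcl10 had a median of 1133 (564 to 1641) with Zymosan and 934 (302 to 1624) with SeV. Ifit1 had a median of 377 (0 to 1227) with SeV.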

How the results depend on the processing

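Rsad2, Ifit1, Cmpk2, Cxcl10, Ccl5, Mx1, Oasl1 and Peli1 kept their direction and side of the threshold under every gene alternative run, as did the reporters ISRE_54, IRF1_55 and IRF3.7_45 under every reporter alternative; the other called genes and reporters named here did not. The minP_58 scaling, the CpG setting and the class by plate test were added after the data were seen. Against 39 class genes, total reads gave 15, the Rn45s covariate 21, summed ligands 18, and leaving out CpG with the covariate 19. Total reads also gave 21 genes for LPS and 20 for Poly(I:C) against MyD88-only ligands, 8 for LPS against Poly(I:C), 0 among MyD88-only ligands, 34 for LPS and 22 for Poly(I:C) against NoStim, 1 by time, 0 at 15 to 45 min, 3 with dCA and 4 with BRD-6989. The same times pair the wells, and without the replicate block the class count was 40, the count among MyD88-only ligands 4 and that at 15 to 45 min 0; it changed no other count by over 1.5 times. Reporter counts against NoStim were 7 (Pam3cys), 7 (CpG) and 6 (R848) with TMM, and minP_58 left 7 class reporters. Leaving out 1 time or ligand gave 20 to 51 class genes, 25 to 48 Poly(I:C) genes, 3 to 11 genes among MyD88-only ligands, 0 to 1 genes at 15 to 45 min, 1 to 6 genes by time, 8 to 22 BRD-6989 genes, 6 to 20 dCA genes, 12 to 24 CpG genes against NoStim, 7 to 14 LPS reporters, 6 to 18 class reporters, 7 to 13 Pam3cys reporters against NoStim and 9 to 18 Poly(I:C) reporters against NoStim. The class count was 20 without 120 min and 20 without 180 min. Signs of class log2 differences turned as follows, with no cause tested. With total reads: Tnf -0.046. With no replicate block: Cxcl2 0.16. With the Rn45s share as a covariate: Ccl3 -0.15, Il1b -0.20, Lars2 0.058, Nfkbia -0.048, Tnf -0.33 and Rn45s 0.041. With summed ligands: Cxcl1 0.056 and Cxcl2 0.24. With voom with ligand as a random block: Ccl3 -0.24, Hmgn5 -0.083, Il1b -0.72, Mt2 -0.058, Nfkbia -0.13 and Socs3 -0.39. With a coefficient per ligand: Il10 0.027, Il1b -0.30, Nfkbia -0.024 and Socs3 -0.24. At 120 to 180 min only: Ccl3 -0.52, Il1b -0.032, Nfkbia -0.084, Socs3 -0.0093, Tnf -1.01 and Tstd3 -1.55. With MDP_LPS wells added: Cxcl1 0.11, Cxcl2 0.23 and Il10 0.66. With CpG left out and the covariate kept: Ccl3 -0.16, Il1b -0.13, Lars2 0.055, Nfkbia -0.053, Tnf -0.26, Tstd3 -0.18 and Rn45s 0.038. Reporters with TMM: NFkB_1 0.047, STAT5_6 0.00029, STAT6_22 0.074 and STAT5_57 0.030. Reporters with minP_58: NFkB_1 0.14, STAT3_5 0.056, STAT5_6 0.053, STAT6_22 0.16 and STAT5_57 0.11. With 1 time or ligand left out, ranges were Ccl3 -0.92 to 0.99, Ctsd -0.019 to 0.89, Cxcl1 -1.57 to 0.65, Cxcl2 -0.79 to 0.80, Ftl1 -0.24 to 0.58, Hmgn5 -3.30 to 1.66, Il10 -1.75 to 0.33, Il12b -0.56 to 1.89, Il1b -2.07 to 1.21, Mmp13 -0.49 to 1.91, Mt2 -0.79 to 1.45, Myd88 -0.014 to 1.02, NRF2_4 -0.72 to 0.027, Nfkbia -0.84 to 0.70, Nfkbiz -2.09 to 0.14, STAT3_5 -0.28 to 0.013, STAT5_57 -0.22 to 0.039, STAT6_22 -0.093 to 0.052, Socs3 -1.85 to 1.27, Tnf -0.43 to 0.59, Tnfaip3 -0.054 to 2.13 and Tstd3 -0.53 to 1.77. Depth limits genes of few molecules such as Ifnb1 and Il6, and the single well per ligand and time leaves no replicate at a time.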
